A study of Mus musculus with 2 samples.

Results

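The genes of cholesterol synthesis, of its control by the sterol regulatory element-binding proteins (SREBPs) and of sterol transport were followed in fibroblasts of the mouse embryo, a primary culture of connective tissue cells. The list held 30 names for 29 genes, since Msmo1 appears under an older name too, and 28 of them had a row of their own among the 25430 gene names of the deposited table. The remaining gene, Tm7sf2, was listed only in a row joined with 1110014N23Rik and is given apart. The listed genes comprise 19 enzyme genes, 5 genes of the SREBP machinery and 5 genes of sterol transport and efflux.

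RNA was sequenced from 1 library labelled wild type and 1 labelled Sptbn1 knockout, named in the series as homozygous. Sptbn1 encodes beta-2 spectrin (β2SP), a scaffold of the membrane skeleton. Both cultures were primary fibroblasts from E13.5 embryos whose parents were both heterozygous, grown in medium with fetal bovine serum. The labels do not say how many embryos a library holds. With 1 library per genotype no difference has a replicate check, and each comparison below is between 2 libraries, not between 2 conditions.

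Cells make cholesterol from acetyl-CoA through mevalonate, isoprenoid diphosphates, squalene and lanosterol. When sterols in the endoplasmic reticulum are low, SCAP carries the SREBP precursors to the Golgi, where they are cut and release transcription factors for the enzyme genes. When sterols are high, INSIG proteins hold SCAP back, while oxysterols activate the LXR receptors, which induce the efflux pumps ABCA1 and ABCG1. Serum lipoproteins supply cultured fibroblasts with cholesterol that leaves the lysosome through NPC2 and NPC1.

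Levels are FPKM, which count fragments relative to transcript length and library size, so they can be compared between genes. A difference is log2((knockout FPKM + 1)/(wild-type FPKM + 1)), called the log2 ratio, and it understates changes of low genes. A gene with a mean of 1 FPKM or more over both libraries is called measured, which held for 11070 genes. The total fragment count is unknown. Among rows with a mean below 0.3 FPKM, the commonest ratio of knockout to wild-type FPKM was 1.61. If it stands for 1 fragment in each library, the knockout library was the shallower, which cannot be checked without fragment counts. At 1 FPKM or above there were 10997 knockout and 11098 wild-type gene names. Sptbn1 was at 36.6 FPKM in knockout and 69.6 FPKM in wild-type cells, a log2 ratio of -0.91. The library labelled knockout was thus the lower, but kept 52.5% of the wild-type FPKM, and this value does not by itself bear out a homozygous loss. FPKM cover the whole gene, the deleted part is not given in the sources used here, and every direction below rests on the library labels. All 11 fibroblast markers were measured. The median measured gene had a log2 ratio of -0.05, and the 5th to 95th percentiles spanned -0.36 to 0.28. The zero point depends on scaling. Setting both libraries to a common FPKM sum moved the median gene to 0.34, or to 0.10 without the 4 rows above 10000 FPKM. A common upper quartile left the median gene at -0.05. Positions are therefore given relative to the median gene.

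Of the 28 rows, 26 were measured. Their median log2 ratio was -0.04, against -0.05 over all measured genes, with 13 members above and 13 below the median gene. No member differed by 1.5-fold, which 2.27% of measured genes did, or by 2-fold, which 0.741% did. The members divided largely by role. Of the 16 measured enzyme genes, 12 lay above the median gene, with a median of 0.02. Of the 10 genes of SREBP control and sterol transport, 9 lay below it, with a median of -0.21. On a common FPKM sum these counts were 14 of 16 and 8 of 10, as Sqle, Msmo1 and Srebf1 changed side. As deposited, these lay almost at the median gene, at distances of -0.002, -0.010 and -0.010. Srebf2 (0.019) and Ggps1 (0.020) were also close to it. The 25th to 75th percentiles of measured genes were log2 ratios of -0.16 to 0.06. Summed over their rows, the enzymes were at 183 FPKM in knockout and 180 FPKM in wild-type cells. The other 10 genes summed to 126 FPKM in knockout and 146 FPKM in wild-type cells, which left 86.3% of the wild-type sum as deposited and 119% on a common FPKM sum.

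**Figure D1:**
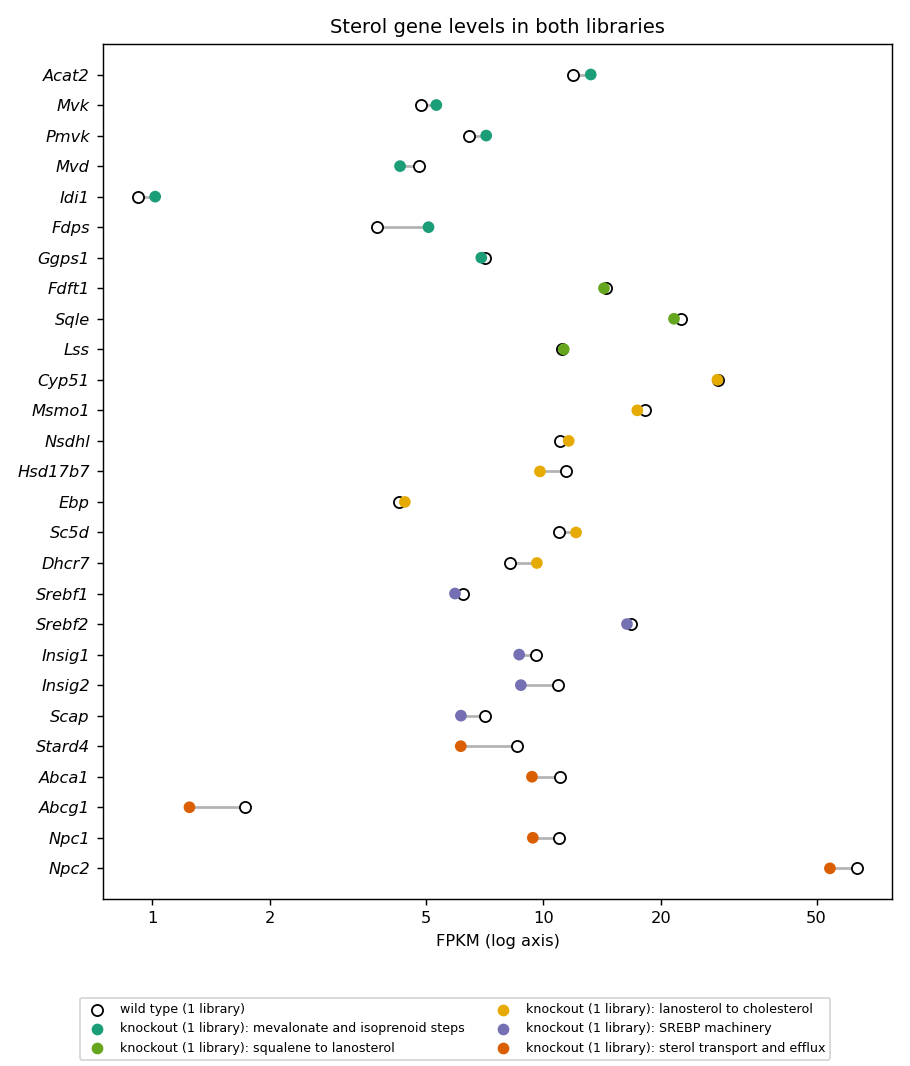
FPKM (log axis) of the 27 members listed above 0, ordered by pathway step, with the wild-type library as open circles and the knockout library as filled circles coloured by role, 1 library each. The enzyme genes lie close together or to either side, while all 10 genes of SREBP control and sterol transport have the knockout value to the left on the deposited scale, as 63.1% of measured genes do. On a common FPKM sum 8 of these 10 have a log2 ratio above 0.

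Promoter sequence, on which the list had not been chosen, was searched for 6 short sequences. Shares over all genes include genes not measured here, and shares over measured genes alone were not computed. RefSeq windows (GRCm38.p6) of 250 bases before to 50 bases after each start site were at hand for 23 of the 29 genes and were absent for Fdps, Fdft1, Sqle, Stard4, Abcg1 and Npc1. CCAAT, the box bound by NF-Y, a factor known to act with SREBPs, was present on either strand for 15 of 16 enzyme genes, against 41.1% of all 27025 genes with a window. Among the 7 genes of SREBP control and transport with a window, 5 held it. GGGCGG, a box of Sp1, was found for 14 of 16 enzyme genes and 7 of 7 others, against 38.2% of all genes. CACGTG, an E-box, was found for 3 of 16 and 3 of 7, against 8.09%. TCACNCCAC, a form of the SREBP site, was found for Hmgcs1 alone, against 1.44% of all genes. The direct repeat with a spacer of 4 bases that LXR binds was searched only in a strict form, with every letter outside the spacer fixed. This strict form was in none of the members' windows, against 0.0148% of all genes. Repeats with any other letter were not searched, so whether the Abca1 window or another holds a variant LXR site was not tested. The longer classic form of the sterol regulatory element was also in none of the members' windows, against 0.0999% of all genes. Every match of the longer form is also a match of TCACNCCAC. A match is a run of letters and not evidence of binding, and a missing match says only that these letters are not in the window.

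The promoters below show this range, each as the 250 bases before the start site, 5′ to 3′ on the gene's strand, with TCACNCCAC, CCAAT and CACGTG matches on either strand in capitals. Hmgcs1 (chr13:119690101-119690350, plus strand) holds the single SREBP-site match beside 3 CCAAT boxes. Mvk (chr5:114444019-114444268, plus strand) has 5 CCAAT boxes, the most of any member with a window. Abca1 (chr4:53159896-53160145, minus strand), an efflux gene, has no CCAAT box and 1 E-box.
Hmgcs1: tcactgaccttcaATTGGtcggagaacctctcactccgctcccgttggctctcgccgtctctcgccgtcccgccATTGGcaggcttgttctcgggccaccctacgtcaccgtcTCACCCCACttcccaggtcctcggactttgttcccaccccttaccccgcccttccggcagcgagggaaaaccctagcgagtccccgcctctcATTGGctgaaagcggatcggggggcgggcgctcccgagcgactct
Mvk: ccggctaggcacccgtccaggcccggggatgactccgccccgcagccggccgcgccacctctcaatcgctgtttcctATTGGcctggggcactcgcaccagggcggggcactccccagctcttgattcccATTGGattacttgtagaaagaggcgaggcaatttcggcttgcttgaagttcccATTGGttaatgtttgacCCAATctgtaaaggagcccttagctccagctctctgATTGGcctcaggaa
Abca1: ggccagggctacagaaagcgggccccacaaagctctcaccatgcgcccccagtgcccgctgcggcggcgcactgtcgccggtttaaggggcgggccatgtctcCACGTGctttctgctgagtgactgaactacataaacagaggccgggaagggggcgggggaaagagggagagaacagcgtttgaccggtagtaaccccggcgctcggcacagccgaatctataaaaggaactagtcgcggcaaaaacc

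The first enzymes turn acetyl-CoA into mevalonate and then into isoprenoid diphosphates. Acat2, the cytosolic thiolase that starts the route, was at 13.2 FPKM in knockout and 11.9 FPKM in wild-type cells, a log2 ratio of 0.14. Its near-identical neighbour Acat3 was at 0.429 and 0.340 FPKM, and fragments shared by both genes could be divided between them. Hmgcs1, which encodes HMG-CoA synthase and whose promoter is printed above, was listed at 0 in both libraries. An exact 0 in such a table can be a failed estimate, so no level and no difference is given for it.

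None of the 3 genes that phosphorylate and decarboxylate mevalonate reached 1.2-fold. The mevalonate kinase gene Mvk was at 5.33 FPKM in knockout and 4.86 FPKM in wild-type cells (log2 ratio 0.11). Pmvk, the next kinase, was at 7.15 against 6.47 FPKM (0.12). Mvd, the decarboxylase that forms isopentenyl diphosphate, lay on the other side at 4.30 against 4.81 FPKM (-0.13). The 2 kinases were thus above and the decarboxylase below the median gene. Idi1, the isomerase of isopentenyl diphosphate, lay just under the measured limit, at 1.02 FPKM in knockout and 0.921 FPKM in wild-type cells.

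Fdps, the synthase of farnesyl diphosphate, stood at the upper end of all members. It was at 5.09 FPKM in knockout and 3.75 FPKM in wild-type cells, a log2 ratio of 0.36, with 96.9% of measured genes lower. It was the 1 member of 26 with knockout FPKM at least 1.2-fold above wild type, which 5.54% of measured genes were. Ggps1, the synthase of geranylgeranyl diphosphate, used for protein prenylation, had near-equal levels of 6.94 and 7.11 FPKM (-0.03). Of the 6 measured genes up to this point in the pathway, 5 lay above the median gene, with a median log2 ratio of 0.12.

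The genes of the steps from farnesyl diphosphate to lanosterol had near-equal FPKM in both libraries. Fdft1, squalene synthase, was at 14.3 FPKM in knockout and 14.4 FPKM in wild-type cells (-0.01). Sqle, squalene epoxidase, a flux-controlling oxygenase, was at 21.6 and 22.4 FPKM (-0.05). Lss, which closes squalene epoxide into the ring system of lanosterol, was at 11.3 and 11.2 FPKM (0.01). No pair of values in this group differed by more than 1.04-fold on the scale used.

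The enzymes that trim lanosterol to cholesterol spread to both sides. Cyp51, the lanosterol demethylase, was the highest enzyme gene in both libraries, at 27.9 FPKM in knockout and 28.0 FPKM in wild-type cells (0.00). The joined row of 1110014N23Rik and Tm7sf2, a sterol reductase, was at 3.61 and 3.06 FPKM (0.18) and is not counted, since its fragments cannot be assigned to either gene.

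Msmo1, Nsdhl and Hsd17b7 encode the complex that removes the methyl groups at carbon C4 of the sterol ring. Their values did not go one way. Msmo1, listed under its older name Sc4mol, was at 17.4 FPKM in knockout and 18.2 FPKM in wild-type cells (-0.06). Nsdhl, the dehydrogenase, was at 11.6 against 11.1 FPKM (0.06). Hsd17b7, the ketoreductase, was the lowest enzyme gene by log2 ratio, at 9.80 against 11.4 FPKM (-0.20), with 17.1% of measured genes lower.

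The last steps had knockout values above the wild-type values. Ebp, the sterol isomerase, was at 4.43 FPKM in knockout and 4.28 FPKM in wild-type cells (0.04). Sc5d, the sterol desaturase, was at 12.1 against 11.0 FPKM (0.13). Dhcr7, the reductase that yields cholesterol, was at 9.63 against 8.23 FPKM (0.20), with 91.7% of measured genes lower. In this group of 7 measured genes 5 lay above the median gene and none reached 1.2-fold.

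**Figure D2:**
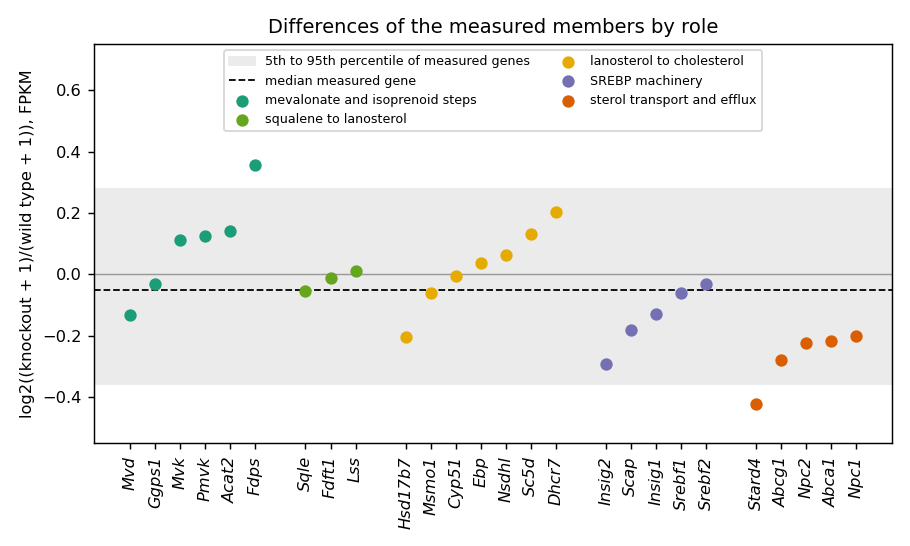
Log2 ratio of knockout over wild type for the 26 measured members by role, ordered within each role, against the 5th to 95th percentile of all measured genes (grey band, -0.36 to 0.28) and their median (dashed line, -0.05). Fdps at 0.36 and Stard4 at -0.42 lie outside the band, and the 5 transport genes all lie at or below -0.20.

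The SREBP genes themselves differed little. Srebf2, which encodes the SREBP that mainly drives cholesterol genes, was at 16.4 FPKM in knockout and 16.8 FPKM in wild-type cells (-0.03). Srebf1, whose products lean toward fatty acid genes, was at 5.94 against 6.25 FPKM (-0.06). Srebf2 was the higher by 2.75-fold in knockout and 2.68-fold in wild-type cells.

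The genes that retain or escort SREBPs lay below the median gene. Insig1, itself a well-known SREBP target, was at 8.68 FPKM in knockout and 9.57 FPKM in wild-type cells (-0.13). Insig2, its paralog with the same retention role, was at 8.76 against 10.9 FPKM (-0.29), with 8.60% of measured genes lower. Scap was at 6.16 against 7.11 FPKM (-0.18). Insig1 and Insig2 were near parity, at ratios of 0.990 in knockout and 0.875 in wild-type cells. With FPKM sums made equal, Insig2 had a log2 ratio of 0.13, still below the median gene there (0.34).

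All 5 transport and efflux genes were below the median gene, and this held under each scaling and pseudocount tried. Their median log2 ratio was -0.22. Stard4, a soluble carrier that moves cholesterol between membranes and a known SREBP target, was at 6.15 FPKM in knockout and 8.58 FPKM in wild-type cells, which left 71.7%. Its log2 ratio of -0.42 was the lowest of all members, with 3.04% of measured genes lower. On a common FPKM sum it was -0.01, again below the median gene.

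The 2 efflux pumps, both LXR targets, lay below the median gene. Abca1, which loads cholesterol onto lipid-poor apolipoprotein, was at 9.35 FPKM in knockout and 11.0 FPKM in wild-type cells (-0.22). Abcg1, which exports sterol to larger lipoproteins, was low in both, at 1.24 against 1.72 FPKM (-0.28, or -0.44 with 0.1 FPKM added in place of 1).

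The lysosomal exporters were close to each other in ratio and far apart in level. Npc1, the membrane protein, was at 9.40 FPKM in knockout and 11.0 FPKM in wild-type cells (-0.20). Npc2, the soluble lysosomal carrier, was the highest of all members, at 54.1 against 63.3 FPKM (-0.22). The wild-type median of the measured members was 10.9 FPKM, against 5.50 FPKM for measured genes. Of the 26 measured members, 3 (Stard4, Insig2 and Abcg1) were at least 1.2-fold lower in the knockout library, which 10.6% of measured genes were, and 0 were on a common FPKM sum. The order of levels was much the same in both libraries, with a Spearman correlation across these 26 genes, which share their 2 libraries, of 0.967.

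Markers of macrophages and leukocytes, cells that embryonic fibroblast cultures can hold, also lay mostly below the median gene. Of 14 such markers, all measured, 12 had a log2 ratio below 0, which 63.1% of measured genes had. At least 1.2-fold lower were 8 of the 14, against the 10.6% of measured genes given above. The complement gene C1qb had the largest difference, at 13.7 against 25.4 FPKM (-0.85), followed by C1qc and the Fc receptor chain gene Fcer1g (-0.56 each) and Cd68 (-0.55). Their median was -0.32, and their summed level was 248 FPKM in knockout and 330 FPKM in wild-type cells. None of the defining markers was at 0: Ptprc was at 2.55 against 2.52 FPKM, Csf1r at 5.25 against 6.69 FPKM, Adgre1 at 13.3 against 14.6 FPKM and Cd68 at 19.0 against 28.3 FPKM. Macrophages are known for high expression of lipid efflux and lysosomal genes, and their part in the values of Abca1, Abcg1 and Npc2 was not tested. Fewer such cells and less RNA per cell cannot be told apart in bulk RNA. Of the adipocyte markers, Adipoq was listed at 0 in both libraries, Plin1 at 0.0324 FPKM in knockout and 0 in wild-type cells, and Fabp4 was at 5.85 against 8.92 FPKM. None of 4 endothelial markers was measured, nor were 3 of 4 epithelial markers, and Sox10, of neural crest and glia, was at -0.38.

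Other genes of the pathway lay on both sides of the median gene. Their lists were drawn up with earlier results of these data known. Fatty acid synthesis genes under SREBP-1 had 11 of 12 members measured and 9 above the median gene, with a median log2 ratio of 0.03. Fads2, a desaturase of polyunsaturated fatty acids, was the 1 gene past 1.2-fold there, at 20.1 FPKM in knockout and 14.9 FPKM in wild-type cells (0.41). The desaturase genes Scd1 (27.6 against 28.7 FPKM) and Scd2 (74.7 against 71.6 FPKM) were near-equal.

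Among 11 measured genes of SREBP control and sterol sensing, 6 lay below and 5 above the median gene, with a median of -0.08. Ube2g2, a ubiquitin-conjugating enzyme of sterol-regulated degradation, was at 12.6 FPKM in knockout and 15.9 FPKM in wild-type cells (-0.32). Nr1h2, which encodes LXRβ, was at 5.37 against 6.52 FPKM (-0.24), and its relative Nr1h3, which encodes LXRα, was not measured. Mbtps1, a protease that cuts SREBPs in the Golgi, was at -0.15. Mbtps2, among the 5 above the median gene, was at 0.03. Its row was joined with Yy2 and, unlike that of Tm7sf2, was counted.

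Storage, transport and oxysterol genes had 10 of 15 measured genes below the median gene and a median of -0.09. Ch25h, the interferon-inducible enzyme that makes a hydroxylated cholesterol, was at 7.49 FPKM in knockout and 12.0 FPKM in wild-type cells (-0.62). Soat1, which esterifies cholesterol for storage, lay on the other side at 30.04 against 26.2 FPKM (0.19). In the isoprenoid branches that leave the pathway toward ubiquinone, dolichol and prenylated proteins, 5 of 10 genes lay below the median gene. Pdss2, of ubiquinone side-chain synthesis, was at 1.40 against 1.94 FPKM (-0.29).

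**Figure D3:**
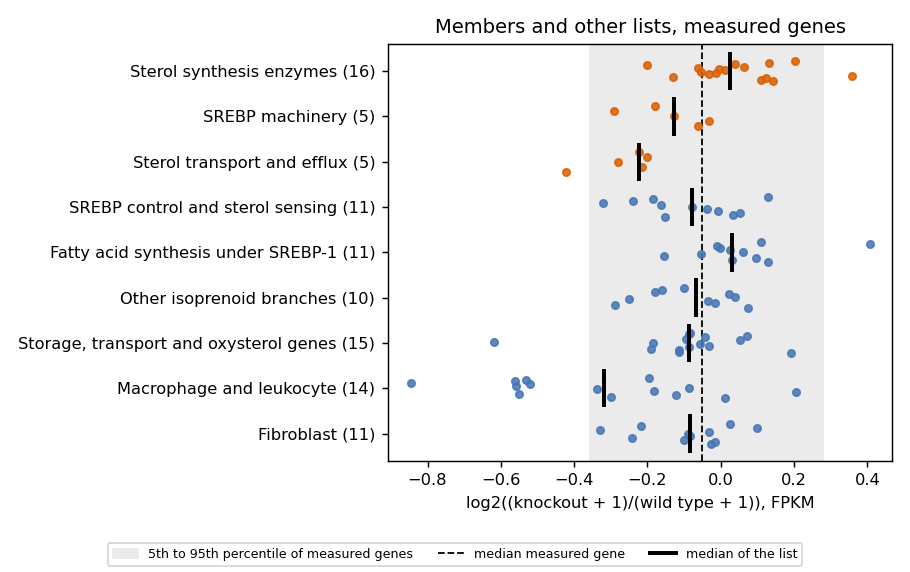
Log2 ratio of knockout over wild type for measured genes, 1 point per gene, of the members by role (orange) and of other lists (blue), with each list's median as a black bar and the number of genes in brackets. The list medians of enzymes (0.02) and fatty acid synthesis genes (0.03) lie to the right of the median gene. Those of transport genes (-0.22) and macrophage markers (-0.32) lie to its left. Single genes lie on the other side in 4 of 16 enzymes, 2 of 11 fatty acid synthesis genes and 2 of 14 macrophage markers.

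The authors' deposited table gives 4 of the 26 measured members a p-value below 0.05, which 5.6% of measured genes had. The p-values in the authors' deposited table were 0.0284838 for Stard4, 0.028614 for Fdps, 0.030716 for Dhcr7 and 0.007188 for Abcg1. With 1 library per genotype they carry no variation among cultures. In the authors' deposited table Dhcr7 has a log2 fold of 0.23, and Hsd17b7, with a log2 fold of -0.22 at a like FPKM level, has a p-value of 0.262802. For Abcg1 the authors' deposited table lists a log2 fold of -2.43, whereas the log2 ratio of its own FPKM columns is -0.47. The other 26 members above 0 in both libraries matched within 0.01.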

How the data were processed

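The table holds 1 row per gene for 1 wild-type and 1 Sptbn1 knockout library of mouse embryonic fibroblasts. Per the labels' protocols, libraries were made from 1 µg of total RNA with the Illumina TruSeq RNA kit. Per the series' design text and the submitters' processing notes, reads from a HiSeq 2000 were checked with FastQC and Trimmomatic, aligned with TopHat2 2.0.10 to NCBI mouse build 37.2 and quantified with Cufflinks, and Cuffdiff2 made the comparison. The authors deposited FPKM per gene together with their own log2 fold and p-value. The wild-type header also carries a -/- mark. It was read as wild type from the title it names. Cufflinks divides fragments between near-identical genes, so levels of such genes are estimates.

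From the FPKM, log2 ratios with a pseudocount of 1 FPKM were computed in Python 3.11.15 (pandas 2.3.3). No member name was repeated, and other repeated names were reduced to their highest row. No test was possible with 1 library per genotype. The counting was tested on simulated data. Members and lists were chosen with earlier results of these data known, and the named genes were every member plus, from each list, up to 4 measured genes at least 1.2-fold apart. Other list genes, Acat3 and the joined rows were named after their values were seen. A gene that the rule takes is not reported here. Alternatives were a pseudocount of 0.1 FPKM, 3 scalings, 2 filters and summed repeated rows. A further scaling was added after seeing the data. Promoters are from RefSeq on GRCm38.p6, another build than the alignment's, and serve for sequence only. No coordinates of the expression table are given.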

Additional observations from a re-analysis of the deposited data

How the results depend on the processing

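On a common FPKM sum, 17 members were at least 1.2-fold higher and 0 lower in the knockout library, with a median log2 ratio of 0.39, and 15 of the 17 measured members below 0 as deposited were above 0. Stard4 and Abcg1 stayed below. Among those that turned was Insig2 (0.13), the only one of them past 1.2-fold as deposited. On that scale 67.8% of measured genes were at least 1.2-fold higher and 1.11% lower. Without the 4 rows above 10000 FPKM, a setting chosen after seeing the data, 6 were higher and 0 lower. Their median was 0.13 over the measured members, against 0.10 for all measured genes. On a common upper quartile 1 was higher and 3 lower, and none of the 26 member values moved by 0.1 or more. Centred on the median gene, 1 member (Stard4) was at least 1.2-fold lower, and with a mean of 5 FPKM or more 0 were at least 1.2-fold higher, since Fdps is below that limit. Enzyme genes above the median gene numbered 12 to 14 of 16 under the settings that keep the 1 FPKM filter (12 as reported). They numbered 11 of 13 with a mean of 5 FPKM or more, and 10 of 18 without a filter, where the median gene is at 0. No paired analysis was possible because each genotype has 1 library. For the same reason no replicate could be left out, and a moved value was taken as a shift of 0.1 or more in log2. The depth in fragments is unknown, so no interval was computed.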

Other observations

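In the authors' deposited table the fold column departs from the log2 ratio of its own FPKM columns by more than 0.01 in 29 of 16471 rows above 0 in both libraries. Of these, 13 have a fold of 0 and a p-value of 1. The other 16, Abcg1 among them, all have p-values under 0.05 there, and in 15 of them the deposited fold is the more negative of the 2 values. Abcg1 is the only member of the sterol genes among the 29.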
